A study of Rattus norvegicus with 12 samples.

Results

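The genes described here copy the genome in S phase: the factors that license and fire replication origins, the replicative DNA polymerases with primase, the sliding clamp and its loader, the enzymes that supply nucleotides, and a few regulators that act in the same phase. They were taken from a list of 50 gene symbols, and a gene counted as measured when the array annotation gave at least 1 probe set that symbol alone. On this rule 45 of the 50 genes were measured, by 61 probe sets, among 14217 genes on the array. The other 5 (Cdc6, Cdc7, Dbf4, Gins2 and Rrm2) had no such probe set, and the 2 probe sets annotated to Rrm2 also carry the name of another gene. Of the measured genes, 34 had 1 probe set and 11 had several. Where a gene had several, the brightest stood for it.

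Replication of animal chromosomes starts at origins that are marked in G1, when the origin recognition complex, Cdc6 and Cdt1 load the Mcm2 to Mcm7 helicase onto DNA. In S phase, the kinases Cdk2 with cyclin E and Cdc7 with Dbf4 bring Cdc45 and the GINS complex to the helicase, and the polymerases then copy both strands behind it. Transcription of many of these genes is driven by E2F factors and held down in resting cells by the retinoblastoma family, so that their mRNAs are widely read as a sign of cycling cells.

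RNA came from the rat fibroblast line F111, which is of Fischer rat origin and grows attached to plastic. Colony cells were F111 cells that had been kept in suspension for 16 h (NA16 cells) and then grown for 7 days in soft agar, after which they were taken out of the agar and given a short time to settle on a dish before lysis. A16 cells were F111 cells plated on plastic for 16 h. Both groups were kept in the same medium with serum, the labels name no allele or drug for either, and both come from this 1 cell line. Each group had 3 arrays, of biological replicate 1, of a technical replicate 2 that carries no biological number, and of biological replicate 2. The technical array was averaged with biological replicate 1, which gave n = 2 cultures per group.

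RMA intensity, a background-corrected and normalized brightness, had a median of 97.6 to 101 on the 6 arrays, and with so few arrays every value is of limited precision. Over all probe sets, the SD of the log2 difference between arrays was 0.22 to 0.33 within Colony, 0.17 to 0.30 within A16 and 0.67 to 0.76 between the groups. From biological replicates 1 and 2, the technical array differed by 0.17 and 0.30 in A16 and by 0.22 and 0.24 in Colony. In Colony these values do not settle which culture the technical array belongs to. Of 12 fibroblast markers, 9 lay above the median gene in brightness, with Vim and S100a4 among the brightest and the matrix proteoglycans Dcn and Lum near the lowest values of the array. The summed RMA intensity of the fibroblast list was 69216 to 72687 on Colony arrays and 93774 to 104703 on A16 arrays, and 4 of its genes (Col1a1, Col3a1, Thy1 and Fn1) were lower in Colony by over 2-fold at an adjusted p under 0.05 in limma. Col1a2 (log2 FC -0.61) and Lum (-0.78) were lower and Pdgfra (0.55) higher at that p with a smaller fold. Leukocyte markers summed to 1894 to 1981 in Colony and 1469 to 1680 in A16, with 1 of 12 above the median gene (Cd14, at 534 to 697 in Colony and 891 to 1020 in A16). Csf1r stood at 538 to 824 in Colony and 34.4 to 44.9 in A16. It was higher by over 2-fold at an adjusted p under 0.05 in limma (log2 FC 4.01). Cd14 was lower at that p with a smaller fold (-0.56). Ptprc stood at 36.8 to 42.2 in Colony and 34.7 to 38.4 in A16 and did not pass. Endothelial markers summed to 615 to 647 in Colony and 723 to 820 in A16. Egfl7 stood at 285 to 305 in Colony and 451 to 502 in A16 (log2 FC -0.67), lower at an adjusted p under 0.05 in limma with a fold under 2. On all Colony arrays Pecam1 (0.44) and Vwf (0.37) lay above and Tek (-0.30) below every A16 array, and these did not pass. Epithelial markers summed to 3233 to 3984 in Colony and 991 to 1098 in A16. Krt8 made up 89.4% to 92.1% of the sum in Colony and 66.6% to 72.3% in A16. It was higher in Colony by over 2-fold at an adjusted p under 0.05 in limma (log2 FC 2.13). Epcam stood at 21.9 to 22.9 in Colony and 22.6 to 26.4 in A16. Cdh1 was higher at an adjusted p under 0.05 in limma with a fold under 2 (log2 FC 0.74). It had 44.9 to 49.0 in Colony and 26.5 to 30.6 in A16. Cldn4 had a log2 FC of -0.32 and did not pass. The part of all these markers in the results below was not tested.

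The labels of Colony biological replicate 2 disagree, since 1 field names tumour cells and the others name colony cells. The array stayed in the Colony group here, and values without it are given beside the results that rest on it. The labels do not say how far the cultures were set up apart, so p-values measure the spread between these samples, which may be technical.

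The 300 bases around each start site (250 before and 50 after, RefSeq, assembly GRCr8) were searched on both strands for the E2F words TTTGGCGC, TTTCCCGC, TTTGCCGC and TTTCGCGC, for the CCAAT box and for the cell cycle homology region TTTGAA. An E2F word can overlap its own copy on the opposite strand. A promoter was on hand for 39 of the 45 genes (42 promoters, since Dut and Uhrf1 have several). An E2F word stood in 18 of the 42 (42.9%), against 2.14% of all 33469 promoters and 3.49% of those of genes on the array. CCAAT stood in 59.5% of these promoters and in 37.5% of all promoters, and TTTGAA in 9.52% and 18.3%. The last 100 bases before the start site are shown for 3 genes with an E2F word whose levels did not pass the test between the groups (Mcm2, Gins1 and Tyms), for Uhrf1, which has such a word in 1 of its 3 promoters and a lower level in Colony, and for Cdk2 and Tk1, the 2 genes called lower in Colony, which hold none of these words. Capitals mark E2F words on either strand.
Mcm2: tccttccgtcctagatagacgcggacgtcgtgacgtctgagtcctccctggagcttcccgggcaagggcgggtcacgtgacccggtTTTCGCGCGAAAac
Gins1: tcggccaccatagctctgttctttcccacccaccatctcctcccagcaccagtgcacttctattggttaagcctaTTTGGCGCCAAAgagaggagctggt
Tyms: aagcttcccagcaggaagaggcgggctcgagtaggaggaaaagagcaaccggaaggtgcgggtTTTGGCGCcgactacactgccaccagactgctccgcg
Uhrf1: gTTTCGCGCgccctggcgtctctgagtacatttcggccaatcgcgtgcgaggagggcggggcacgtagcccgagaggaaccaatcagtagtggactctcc
Cdk2: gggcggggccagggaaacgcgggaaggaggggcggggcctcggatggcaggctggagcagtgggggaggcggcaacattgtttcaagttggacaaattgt
Tk1: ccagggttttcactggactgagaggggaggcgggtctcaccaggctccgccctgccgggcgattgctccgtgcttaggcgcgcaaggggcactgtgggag
These windows lie at chr4:122918095-122918194 (minus strand), chr3:160184820-160184919 (plus strand), chr9:120776084-120776183 (minus strand), chr9:1223086-1223185 (plus strand), chr7:1721879-1721978 (minus strand) and chr10:103544778-103544877 (minus strand). In Mcm2 and Gins1 the word is read on both strands as a palindrome. A match is a description of the letters and not of a bound site, and a window without a match says only that these letters are not in it.

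Colony and A16 cells were compared to ask whether cells that had formed colonies without anchorage carried more or less replication mRNA than attached cells. Most of the machinery stayed within 2-fold. On the log2 scale (Colony minus A16, log2 FC), the 45 genes had a median of -0.11, with the middle of the list between -0.37 and 0.20, and 26 genes lay below 0 and 19 above. The median of all genes was 0.05. The 95% interval of the difference lay wholly within 2-fold for 40 of the 45 genes (88.9%), against 80.1% of all genes and 74.7% of the 6808 genes at least as bright as the dimmest of them. In bulk RNA, fewer cells in S phase and less RNA per such cell cannot be told apart.

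A gene was called when limma gave an adjusted p under 0.05, over all 31042 probe sets tested, together with a fold change over 2. Called genes that were lower in Colony made up 4.75% of all genes and 2 of these 45, Cdk2 and Tk1. Called genes that were higher in Colony made up 4.36% of all genes and 0 of these 45. At an unadjusted p under 0.05 in limma, 6 of the 45 genes were higher, none of them over 2-fold, and 12 were lower. Of all 14217 genes, 2755 were higher and 2266 lower at that unadjusted p. By the adjusted p alone, 9 of the 45 genes fell in Colony (20.0%) where 10.8% of all genes did, and 2 rose where 12.9% of all genes did. Below, "fell" and "rose" are written of genes that passed the adjusted p, whatever their fold. All 3 Colony arrays lay below all 3 A16 arrays for 16 of the 45 genes (20.9% of all genes), all 3 lay above for 11 (26.7% of all genes), and the groups overlapped for 18. Without Colony biological replicate 2, 1 gene was called lower (Cdk2), and 5 genes fell and 0 rose by the adjusted p. Of the 11 genes that passed with all arrays, 4 (Cdk2, Pola2, Rfc3 and Tk1) then still passed and 7 did not, and 1 other gene (Orc1) passed. With each of the 4 cultures left out in turn, 2 of the 11 genes (Cdk2 and Tk1) passed every time and the other 9 did not pass without at least 1 of the cultures, where 1 group has a single culture and the fit less information.

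**Figure D1:**
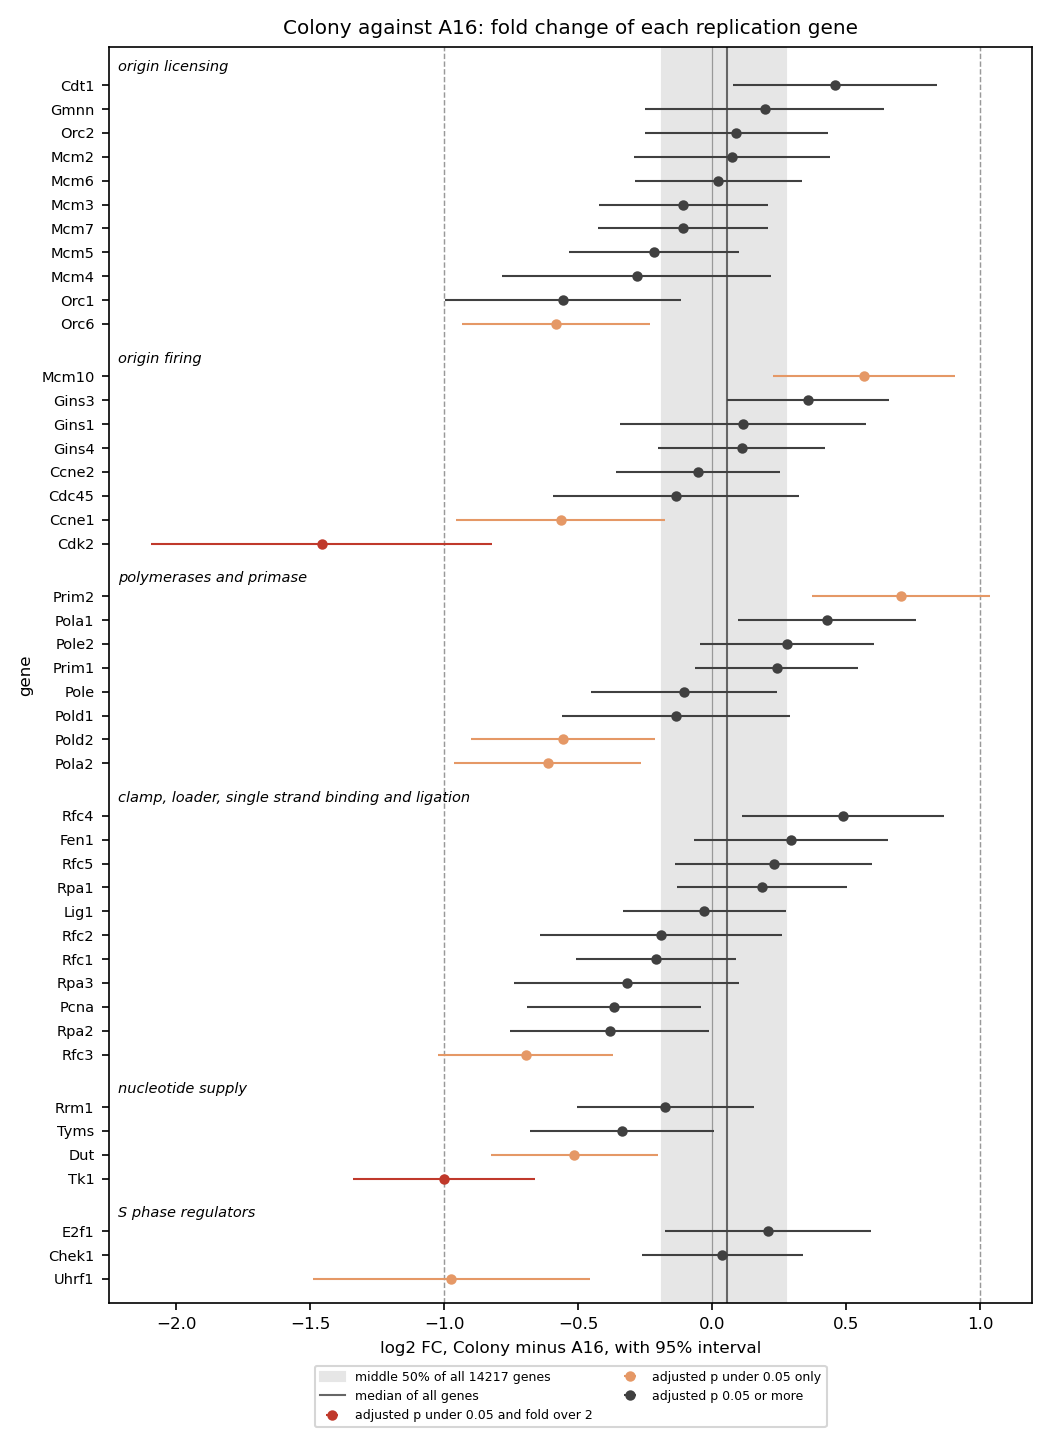
Log2 FC of each gene, Colony minus A16, on the x axis, with the 95% interval of limma as bars (n = 2 cultures per group), grouped by role and ordered by size. The grey band holds the middle 50% of all 14217 genes, the dashed lines mark 2-fold, and Cdk2 at -1.46 and Tk1 at -1.001 are the genes called lower.

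Among the licensing factors, 11 of 12 listed genes were measured, and the helicase that they load barely differed between the groups. Mcm2 had 1694, 1619 and 1770 RMA units in Colony (biological 1, technical 2 and biological 2) and 1750, 1874 and 1462 in A16. Mcm7 had 4274, 4571 and 4353 in Colony and 5146, 4879 and 4469 in A16. Colony values of Mcm2 lay inside the A16 range, and those of Mcm7 overlapped it. The 6 subunits Mcm2 to Mcm7 had log2 FC from -0.28 (Mcm4) to 0.07 (Mcm2), with a median of -0.11, and the intervals of all 6 lay within 2-fold. Mcm4 was spread most in Colony, at 1108, 1920 and 2184 units against 2238, 2444 and 2015 in A16, and the low value was the array of biological replicate 1.

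Orc6 and Orc1, subunits of the origin recognition complex that marks the sites where the helicase is loaded, had the lowest log2 FC of the licensing group. Orc6 fell, with 742, 806 and 826 units in Colony and 1294, 1335 and 1091 in A16 (log2 FC -0.58, SE 0.15, adjusted p = 0.031 in limma). The groups did not overlap, and the other 2 Orc6 probe sets fell as well, by 0.70 and 0.78 on the log2 scale. The log2 FC of the brightest was -0.63 without Colony biological replicate 2 and did not pass (adjusted p = 0.075). Orc1, an ATPase subunit, had 196, 245 and 297 units in Colony and 474, 352 and 345 in A16, a log2 FC of -0.56 that did not pass (adjusted p = 0.077), though it did without Colony biological replicate 2 (-0.77, adjusted p = 0.037). Orc2 had a log2 FC of 0.09. Among the other fork and origin genes described below, Orc3 had -0.26, Orc4 0.15 and Orc5 0.16, and none of these passed. Cdt1, which brings the helicase to the origin, was the highest of this group at 0.46 (SE 0.16, adjusted p = 0.090), with 1261, 1336 and 1620 units in Colony, all above the 1160, 1087 and 993 of A16. Geminin (Gmnn), the inhibitor of Cdt1, had 1453, 1742 and 1977 units in Colony and 1780, 1782 and 1347 in A16 by its brightest probe set, which overlapped.

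Of the factors that fire origins, 8 of 11 listed genes were measured, and their spread was wider. Cdk2, the kinase that acts with cyclin E at the entry into S phase, had 863, 817 and 513 units in Colony and 1510, 1525 and 2142 in A16. All Colony arrays were below all A16 arrays, and biological replicate 2 was the lowest Colony array and the highest A16 array. Its log2 FC was -1.46 (SE 0.27, adjusted p = 0.0093 in limma), a 2.75-fold lower level, the lowest of the 45 genes. A second Cdk2 probe set fell by 0.79 (adjusted p = 0.020), under the 2-fold limit, and without Colony biological replicate 2 the brightest one gave -1.10 (adjusted p = 0.026).

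Cyclin E1 (Ccne1), a partner of Cdk2, fell, with 441, 413 and 327 units in Colony and 581, 513 and 559 in A16 (log2 FC -0.57, SE 0.16, adjusted p = 0.049). The groups did not overlap, but the p lay at the threshold, and without Colony biological replicate 2 the log2 FC was -0.37 and did not pass (adjusted p = 0.21). Cyclin E2 (Ccne2) had a log2 FC of -0.05, with an interval of -0.36 to 0.25, and its groups overlapped. Mcm10, which helps the helicase to open DNA, rose by its brightest probe set to 472, 647 and 613 units in Colony, against 423, 421 and 367 in A16 (log2 FC 0.57, adjusted p = 0.031). This value was 0.49 without Colony biological replicate 2 and did not pass (adjusted p = 0.13). Its other probe set moved the opposite way, with 283, 287 and 324 units in Colony and 394, 483 and 457 in A16 (log2 FC -0.56, adjusted p = 0.027), so the 2 probe sets give Mcm10 no single direction.

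The GINS subunits and Cdc45, which complete the active helicase, did not pass the test by their brightest probe sets. Gins3 had a log2 FC of 0.36 (adjusted p = 0.094), Gins1 of 0.12 and Gins4 of 0.11, and the Colony arrays of Gins3 and Gins4 lay above all A16 arrays. Cdc45 had 1119, 1262 and 1199 units in Colony and 1660, 1508 and 1089 in A16 by its brightest probe set (log2 FC -0.14), so the lowest A16 array lay under all Colony arrays. Its other probe sets had -0.22, -0.24 and -0.67, of which the last passed (adjusted p = 0.021 in limma).

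**Figure D2:**
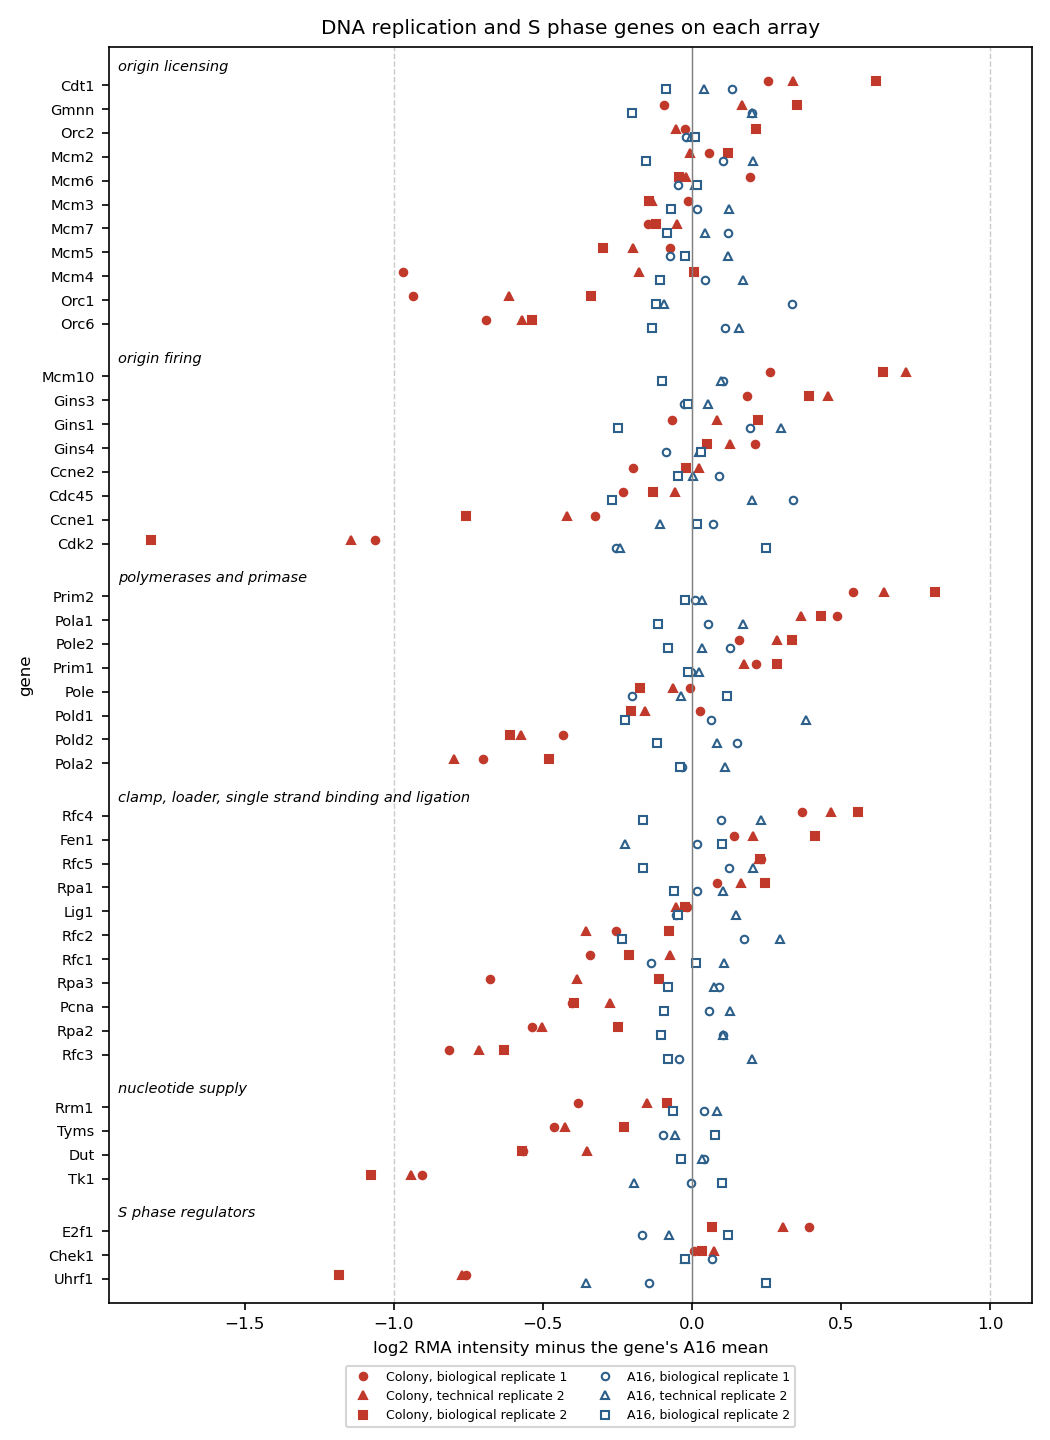
Log2 RMA intensity of each gene on each of the 6 arrays, given as the difference from the mean of the 2 A16 cultures on the x axis, with filled symbols for Colony and open ones for A16. Cdk2, Tk1 and Uhrf1 have all Colony arrays well left of the A16 arrays, while the Colony and A16 symbols of 5 of the 6 genes Mcm2 to Mcm7 overlap.

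The replicative polymerases had values on both sides of 0 within the same complexes. Of the 4 subunits of the polymerase alpha and primase complex, which lays the first primer of each fragment, Prim2, the regulatory subunit of primase, rose with 1063, 1142 and 1286 units in Colony and 737, 749 and 719 in A16 (log2 FC 0.70, SE 0.14, adjusted p = 0.013). This was the highest value of all 45 genes, and its interval of 0.37 to 1.04 reached past 2-fold. With Colony biological replicate 2 left out it was 0.59 and did not pass (adjusted p = 0.061). The accessory subunit Pola2 fell, with 491, 459 and 572 units in Colony and 780, 861 and 777 in A16 (log2 FC -0.61, SE 0.15, adjusted p = 0.025), and it passed without Colony biological replicate 2 as well (-0.75, adjusted p = 0.029). The catalytic subunits of the same complex had positive values that did not pass, Pola1 at 0.43 (adjusted p = 0.072) and Prim1 at 0.24. In all 4 of these genes the Colony and A16 arrays did not overlap. Over all genes, 26.7% had every Colony array above every A16 array and 20.9% had every one below.

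Of the polymerases that copy each strand, the small delta subunit Pold2 fell, with 1205, 1095 and 1065 units in Colony and 1806, 1724 and 1500 in A16 (log2 FC -0.56, SE 0.14, adjusted p = 0.033). It had -0.50 without Colony biological replicate 2 and did not pass (adjusted p = 0.13). The catalytic delta subunit Pold1 had a log2 FC of -0.14, and the catalytic epsilon subunit Pole one of -0.10, each with overlapping groups. Pole2, the second epsilon subunit, had 0.28 with no overlap and an adjusted p of 0.21. Over the 8 genes of this group the median was 0.07, with 4 values above 0 and 4 below.

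The clamp, its loader, the single strand binding protein and the enzymes that join fragments had a median log2 FC of -0.19 over 11 genes. Pcna, the sliding clamp that holds polymerases on DNA, had 5861, 6405 and 5884 units in Colony and 8061, 8450 and 7258 in A16. No Colony array reached the lowest A16 array, and the log2 FC of -0.37 (SE 0.14) did not pass (adjusted p = 0.11 in limma). Of the clamp loader, Rfc3 fell, with 765, 820 and 869 units in Colony and 1306, 1546 and 1273 in A16 (log2 FC -0.70, SE 0.14, adjusted p = 0.012), and it passed without Colony biological replicate 2 (-0.76, adjusted p = 0.031). Rfc4, another subunit of the same ring, had 2359, 2519 and 2686 units in Colony and 1951, 2142 and 1629 in A16, a log2 FC of 0.49 that was the highest of this group and did not pass (adjusted p = 0.072). By their brightest probe sets the loader subunits thus lay on both sides of 0, with Rfc5 at 0.23, Rfc2 at -0.19 and Rfc1 at -0.21. The other probe sets of Rfc1 (-1.26 and -1.13) and Rfc5 (-0.45), described below, had lower values.

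Replication protein A, which coats single strands, had log2 FC of 0.19 for the large subunit Rpa1, -0.38 for Rpa2 and -0.32 for Rpa3, and none of the 3 passed. Rpa2 and Rpa3 did not overlap between the groups, and Rpa1 did. Fen1, which trims the flap ahead of ligation, had 0.29 (adjusted p = 0.23), and the ligase Lig1 had 1257, 1224 and 1250 units in Colony and 1224, 1409 and 1231 in A16 by its brightest probe set, a log2 FC of -0.03 with an interval of -0.33 to 0.27.

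The enzymes of nucleotide supply were the only role group in which every measured gene (4 of 5 listed) was lower on all Colony arrays than on all A16 arrays. Over all genes, 20.9% had every Colony array below every A16 array. For Rrm1 the gap was small, with 2290 units on the highest Colony array and 2323 on the lowest A16 array. The median log2 FC of these 4 genes was -0.43. Rrm2 was not counted, and the 2 probe sets that it shares with Rrm2l1 did not move together. The brighter gave 0.21 with overlapping groups (adjusted p = 0.37 in limma) and the other -0.82 (adjusted p = 0.0078). Thymidine kinase 1 (Tk1), which salvages thymidine, had 1611, 1571 and 1431 units in Colony and 3012, 2637 and 3235 in A16. The groups lay far apart relative to their spread (log2 mean 10.56 ± 0.11 in Colony and 11.56 ± 0.14 in A16, SD, n = 2 each), and the log2 FC was -1.001 (SE 0.14, adjusted p = 0.0035 in limma). The value stood just past the 2-fold limit, and it stayed under that limit with PLIER intensity (-0.96), with quantile normalization (-0.99) and with arrays centred on their median (-0.98). Without Colony biological replicate 2 it was -0.92 (adjusted p = 0.018), which is not called. The other Tk1 probe sets gave -0.68 (adjusted p = 0.027) and -0.21 (adjusted p = 0.33), so the size of the difference depended on the probe set.

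Dut, the dUTPase that keeps uracil out of DNA, fell, with 2790, 3242 and 2783 units in Colony and 4250, 4230 and 4030 in A16 (log2 FC -0.51, SE 0.13, adjusted p = 0.031). The value was -0.46 without Colony biological replicate 2 and did not pass (adjusted p = 0.13). Thymidylate synthase (Tyms) had 473, 485 and 556 units in Colony and 609, 627 and 688 in A16, and the large subunit of ribonucleotide reductase (Rrm1) had 1864, 2188 and 2290 in Colony and 2497, 2576 and 2323 in A16. Neither passed, with log2 FC of -0.34 (adjusted p = 0.16) for Tyms and -0.17 (adjusted p = 0.44) for Rrm1.

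Of the 3 regulators, Uhrf1, which recruits the maintenance DNA methyltransferase to newly copied DNA, fell, with 1351, 1340 and 1005 units in Colony and 2070, 1788 and 2713 in A16 (log2 FC -0.97, SE 0.22, adjusted p = 0.019). It lay just under the 2-fold limit, as Tk1 lay just over it. Without Colony biological replicate 2 its log2 FC was -0.76 and no longer passed (adjusted p = 0.083). E2f1, the E2F factor that drives S phase genes, had 582, 548 and 464 units in Colony and 395, 420 and 482 in A16 (log2 FC 0.21), and the checkpoint kinase Chek1 had 783, 821 and 798 in Colony and 818, 767 and 767 in A16 (log2 FC 0.04). Both overlapped between the groups, and the interval of Chek1 was -0.26 to 0.34.

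All 11 genes that fell or rose had a promoter in the table. Of the 9 that fell, 2 (Rfc3 and Uhrf1) have an E2F word there and 7 do not, and neither of the 2 that rose has one. The 18 genes with such a word had log2 FC from -0.97 (Uhrf1) to 0.46 (Cdt1), with a median near 0 (-0.0040), and the 21 without had log2 FC from -1.46 (Cdk2) to 0.70 (Prim2), with a median of -0.17. The 2 ranges overlap over most of their length, and no test was made of this split. The measured genes lie on 17 chromosomes, with at most 6 on 1 of them (chromosome 1).

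For 11 genes the several probe sets could be set side by side, each as its own difference between the groups. Lig1 had a second probe set, with the suffix s, that fell by 2.36 on the log2 scale, with 154, 159 and 175 units in Colony and 772, 690 and 995 in A16 (adjusted p = 0.00027), where the brightest gave -0.03. In Affymetrix naming this suffix marks probes that can match several transcripts. Gmnn had a second probe set at 160, 137 and 159 units in Colony and 65.3, 57.9 and 67.9 in A16 (log2 FC 1.25, adjusted p = 0.0011), where the brightest gave 0.20. In both genes the groups were apart by the second probe set and overlapped by the brightest.

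Rfc1 fell by both of its dimmer probe sets (log2 FC -1.26 and -1.13) and had -0.21 by the brightest. Dut fell by 0.51 and 1.03, Orc6 fell by all 3 of its probe sets, and 1 of the 4 Cdc45 probe sets fell by 0.67 (adjusted p = 0.021) while the others had -0.14 to -0.24. Rfc5 had 0.23 and -0.45, and neither passed. The difference between probe sets of a gene was not itself tested.

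**Figure D3:**
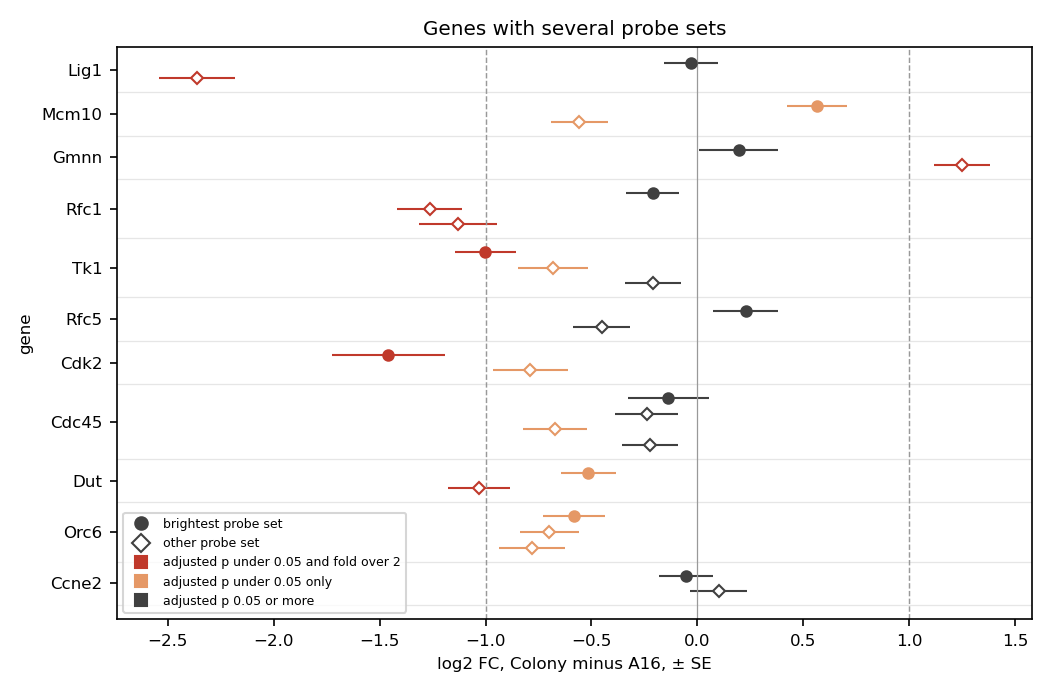
Log2 FC of each probe set, Colony minus A16, with its SE as bars, for the 11 genes with several probe sets. Filled circles are the brightest probe set of a gene and open diamonds the others, and the probe sets of Lig1 run from -2.36 to -0.03, those of Mcm10 from -0.56 to 0.57 and those of Gmnn from 0.20 to 1.25.

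Single cultures were then compared, since the list moved little relative to them. The median log2 difference of the 45 genes was -0.16 for Colony 1 minus A16 1, -0.02 for Colony 1 minus A16 2, -0.10 for Colony 2 minus A16 1 and 0.02 for Colony 2 minus A16 2. These 4 differences share cultures and are not independent. Within a group, the median was -0.07 for Colony 1 minus Colony 2 and 0.13 for A16 1 minus A16 2, where 33 of the 45 genes lay above 0 (median of all genes 0.07). For the 4 pairs between groups, in the order above, the medians of all genes were 0.01, 0.08, 0.02 and 0.10. Each lay above the list's median for that pair. Without regard to all genes, the difference between the A16 cultures (0.13) was as large in size as the median difference between the groups (-0.11). Beside all genes, the list stood lower between the groups (-0.11 against 0.05) and higher between the A16 cultures (0.13 against 0.07). Without A16 biological replicate 1 the list's median was 0.0051 in place of -0.11, and the median of all genes was 0.09 in place of 0.05.

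**Figure D4:**
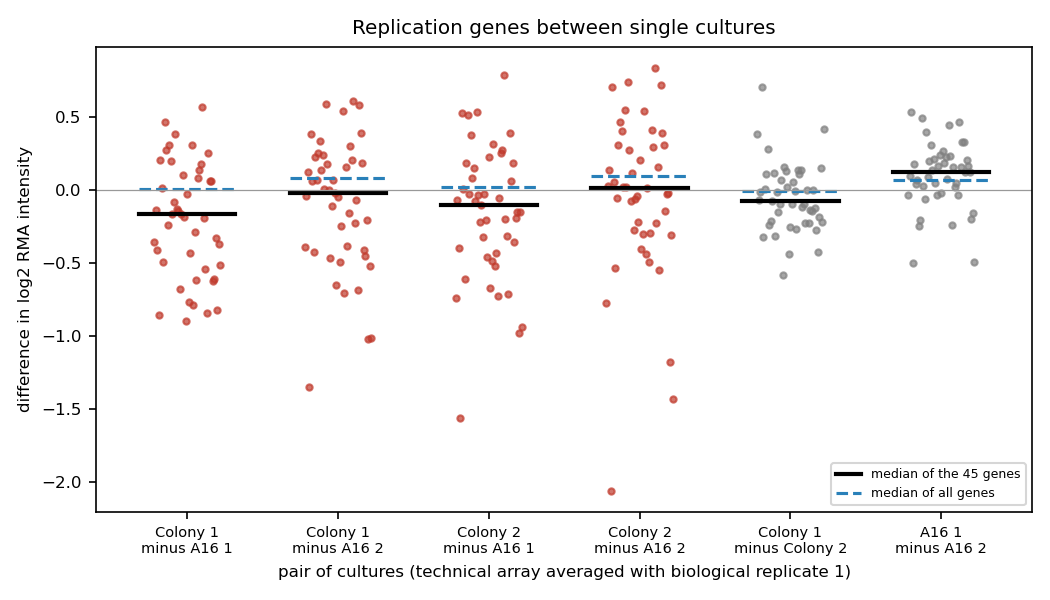
Difference in log2 RMA intensity of each of the 45 genes between single cultures, for the 4 pairs of a Colony and an A16 culture (red) and the pair within each group (grey), with a black line at the median of the 45 genes and a dashed line at that of all genes. The 4 medians between groups run from -0.16 to 0.02, and the median between the A16 cultures is 0.13.

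Lists of neighbouring genes were taken from textbook pathways. Each of their genes was read by its brightest probe set, and other probe sets of these genes were not compared. Beside the counts of these lists, 12.9% of all genes rose and 10.8% fell, and 4.36% were called higher and 4.75% lower. Other fork and origin genes (28 of 31 measured) had a median log2 FC of 0.09. By limma, 0 of these were called, 0 fell and 4 rose. At an unadjusted p under 0.05 in limma, 4 of the 28 were lower and 7 higher, against 2266 and 2755 of all 14217 genes. The 4 that rose were Topbp1 (0.95), which helps to fire origins, the fork protein Wdhd1 (0.85), Rnaseh2c (0.81) and Rnaseh2a (0.66). Rnaseh2c and Rnaseh2a are subunits of the enzyme that removes ribonucleotides. Topbp1 had 1338, 1387 and 1598 units in Colony and 740, 743 and 785 in A16. Each of these 4 genes had all Colony arrays above all A16 arrays, and all 4 passed without Colony biological replicate 2.

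Other genes of nucleotide metabolism (17 of 22 measured) had a median of -0.14. None was called, 7 fell and 1 rose. The 7 were Samhd1 (-0.96), which breaks down deoxynucleotides, Shmt2 (-0.87) and Shmt1 (-0.74) of the folate cycle, Cad (-0.86) of pyrimidine synthesis, Gart (-0.72) of purine synthesis, and the kinases Dck (-0.62) and Nme2 (-0.60). Cad had 986, 834 and 747 units in Colony and 1440, 1743 and 1406 in A16. The gene that rose was Ctps2 (0.86), a CTP synthase. Without Colony biological replicate 2, Cad, Dck, Shmt1 and Ctps2 passed and the other 4 of these 8 genes did not. Among the 4 measured nucleotide enzymes of the main list, 2 fell and 0 rose (0 also at an unadjusted p under 0.05 in limma).

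Among genes of replication-coupled chromatin and checkpoints (20 of 22 measured, median -0.01), Cdc25a, the phosphatase that activates Cdk2, was called lower, with 271, 306 and 221 units in Colony and 510, 514 and 634 in A16 (log2 FC -1.18, SE 0.18, adjusted p = 0.0049). Its value without Colony biological replicate 2 was -0.99 (adjusted p = 0.020), under the 2-fold limit. Hus1 of the checkpoint clamp rose (0.58), and no other gene of this list passed. Among E2F and pocket protein genes (16 of 17 measured, median 0.15), Rb1, the retinoblastoma protein, was called higher with 557, 650 and 722 units in Colony and 197, 229 and 199 in A16 (log2 FC 1.68, SE 0.15, adjusted p = 0.00048). The authors' quantitative PCR, by contrast, placed Rb1 in colony cells close to its A16 level. E2f2 was called higher as well, with 391, 336 and 263 units in Colony and 101, 125 and 135 in A16 (log2 FC 1.33, SE 0.19, adjusted p = 0.0036). Both kept their calls without Colony biological replicate 2 (log2 FC 1.55 for Rb1 and 1.56 for E2f2). The pocket protein Rbl2 rose (0.79), and of the E2F partners Tfdp2 rose (0.77) and Tfdp1 fell (-0.58), of which Tfdp1 did not pass without that array (adjusted p = 0.061).

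**Figure D5:**
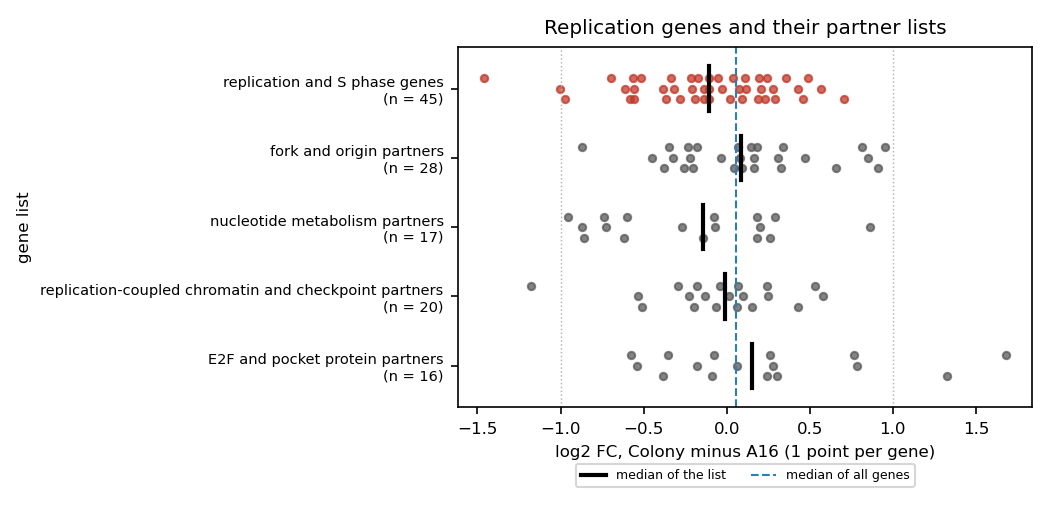
Log2 FC, Colony minus A16, of the 45 replication and S phase genes and of the 4 lists of related genes, 1 point per gene, with a black line at the median of each list and a dashed line at the median of all genes (0.05). List medians run from -0.14 to 0.15, and Rb1 at 1.68 is the highest point.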

How the data were processed

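Total RNA of Colony and A16 cells was measured on 6 Affymetrix rat arrays. The authors read the scans with Affymetrix Gene Chip Operating Software and deposited RMA and PLIER intensity of every array, both on a linear scale. The sources used here name no version of RMA or PLIER. RMA makes the distributions of the arrays alike, so a difference is relative to the other genes. The tests were planned for RMA values already on a log2 scale, so log2 of the intensity was taken with nothing added.

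The array holds 31099 probe sets. Without 57 controls, 31042 were fitted in R 4.3.3 (limma 3.58.1, lmFit then eBayes) and their p-values adjusted with Benjamini-Hochberg. Of these, 20826 had 1 gene symbol, 436 several and 9780 none, which gave 14217 genes, and symbols were brought up to date with the RefSeq gene table of GRCr8. Groups came from the sample labels. Simulated data with known changes were used to test the script. Tables and figures were made in Python 3.11.15.

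The members, gene lists and tests were chosen with earlier results of these data known. Every called gene, the highest and the lowest of each role group and each gene with an adjusted p under 0.05 are named, with up to 3 called genes each way per related list; the other genes and arrays named were chosen after their values were seen. The same-numbered cultures did not deviate together (correlation of culture differences between groups -0.15), so numbers were not used as pairs. Alternatives were PLIER as log2(value + 16), other uses of the technical arrays, a replicate block, each culture left out, the dimmest 40% of probe sets left out, quantile or median scaling, a trended and robust eBayes, the methods' t-test, and other choices of probe set.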

Additional observations from a re-analysis of the deposited data

How the results depend on the processing

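The 19 alternatives kept the 45 genes mostly below 2-fold: of 855 values of a gene under an alternative, 20 gained or lost a call and 25 turned sign, and 30 genes kept their sign in all. The count called lower (2) was 1 with PLIER, with the 6 arrays as separate samples, with the technical arrays averaged with biological replicate 2, with culture as a random block, with quantile or median scaling and with the methods' t-test unadjusted. It was 0 with that t-test after Benjamini-Hochberg adjustment, where 0 of all genes passed, and 5 with the probe set of lowest adjusted p, which also called 1 gene (Gmnn) higher. Leaving out a culture gave 1 to 3. Tk1 lost its call with PLIER (log2 FC -0.96), with both scalings, with the mean of its probe sets (-0.63), with the technical arrays as separate samples, with biological replicate 2 or in a random block, and without Colony or A16 biological replicate 2 (-0.92 and -0.90), and Uhrf1 gained one without Colony or A16 biological replicate 1 (-1.18 and -1.22), or with the technical arrays left out (-1.02). Cdk2 was called lower in every alternative but the t-test, from -1.81 to -1.10.

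The count that rose (2) was 6 with separate arrays, 4 with culture as a random block, with the mean of all probe sets of a gene and with the t-test unadjusted, 1 with the technical arrays left out, 0 with the adjusted t-test, and 0 to 3 with a culture left out. The count that fell (9) was 13 with separate arrays, 12 with the technical arrays averaged with biological replicate 2, 6 with them left out, 5 with the t-test unadjusted, 0 with it adjusted, and 4 to 5 with a culture left out, where a group has 1 culture and the spread comes from the other group. PLIER gave 3 that rose and 7 that fell. The median of the list (-0.11) ran from -0.18 to 0.0051 with a culture left out, where that of all genes ran from 0.02 to 0.09.

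With the replicate block, 2 genes were called lower, 2 rose and 8 fell. With the numbers crossed, an alternative chosen after seeing the data, 2 were called lower, 4 rose and 10 fell. With 2 cultures per group the median SE was 0.14 on the log2 scale, and RMA intensity gives no detection limit for dim probe sets.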
